A study of Mus musculus with 3 samples.

Results

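The thrombospondin family of the mouse fracture callus was followed through its 5 genes, *Thbs1*, *Thbs2*, *Thbs3*, *Thbs4*, and *Comp*, out of 32285 genes counted. All 5 symbols were found once in the gene list. The cells came from femoral fracture callus of C57BL/6 mice that had no treatment besides the fracture, which the study makes by cutting the femur in mid-shaft and then pinning it, and were taken on 3 days (7, 10, and 14) after it. Callus cells without CD45, CD31, and TER119 on their surface were sorted and captured in droplets, and each day gave 1 library. The labels give neither the age nor the number of the animals, and the day and the library cannot be told apart.

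In this assay each mRNA molecule is counted once at its 3′ end through a unique molecular identifier (UMI), so gene length does not enter a level. Cells within the study's limits (500 to 5000 genes, at most 10% mitochondrial and 5% hemoglobin UMIs) that had 0 UMIs of *Ptprc*, the gene of CD45, numbered 447 on day 7, 6587 on day 10, and 9680 on day 14. On day 7 these were 6.37% of the cells within the limits, and the rest of that library carried *Ptprc*, so day 7 is given as values only. The libraries shared 13 to 26 barcodes per pair. The median depth was 6763 UMIs per cell on day 7, 17372 on day 10, and 15838 on day 14.

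Cells were grouped by the gene that marks each state of the callus. *Aspn*-high cells (osteoprogenitors) numbered 11, 1298, and 3069 on the 3 days. *Cnmd*-high cells (chondrocytes) numbered 47, 2334, and 1297, and *Col10a1*-high cells (hypertrophic chondrocytes) 5, 430, and 1077. *Ifitm5*-high cells (osteoblasts) numbered 1, 76, and 264, and *Rgs5*-high cells (pericytes) 0, 74, and 193. High meant at least 3 UMIs and at least 2000 CPM (counts per 1e+06 UMIs of the cell) of *Aspn* or *Cnmd*, 10000 CPM of *Col10a1*, or 1000 CPM of *Ifitm5* or *Rgs5*, and no other of these markers high. *Chodl*-positive cells, with at least 2 UMIs of *Chodl*, numbered 3, 42, and 13 and were kept out of the other groups. A further 379, 2142, and 3630 cells were high for no marker. Marker lists were summed over the groups, and they include *Cnmd* and *Ifitm5*, so part of each sum was set by the grouping itself. On day 10 and day 14, 5 chondrocyte genes summed to 57804 CPM and 51101 CPM in *Cnmd*-high cells. In *Aspn*-high cells the sums were 2959 CPM and 2437 CPM. In *Ifitm5*-high cells 6 osteoblast genes summed to 74925 CPM and 70625 CPM. *Col10a1*-high cells also held 27152 CPM and 19656 CPM of the osteoblast genes. This sum is not split by gene here and does not by itself mark them as osteoblasts. Over the 6 groups on day 10 and day 14, 5 macrophage genes summed to at most 4.43 CPM, 4 platelet genes to at most 16.2 CPM, 4 endothelial genes to at most 56.3 CPM, and 6 neutrophil genes to at most 245.7 CPM.

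Thrombospondins are large secreted glycoproteins that bind calcium, collagens, integrins, and heparan sulfate. *Thbs1* and *Thbs2* encode the trimeric members, which carry the type 1 repeats that bind CD36, and thrombospondin 1 can activate latent TGF-β. *Thbs3*, *Thbs4*, and *Comp* encode the pentameric members, which lack these repeats. COMP, the cartilage oligomeric matrix protein, binds collagens II and IX and the matrilins and is a classic product of cartilage and tendon, and thrombospondin 4 is abundant in tendon. In bone repair, thrombospondin 1 and thrombospondin 2 are known as inhibitors of vessel growth.

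On the GRCm38 build (mm10), *Thbs1* lies at chr2:118111876-118127133 on the plus strand, *Thbs2* at chr17:14665500-14694235 on the minus strand, and *Thbs3* at chr3:89215180-89226837 on the plus strand. *Thbs4* lies at chr13:92751590-92794818 on the minus strand and *Comp* at chr8:70373558-70382066 on the plus strand. In the GENCODE M21 annotation the whole of *Thbs3*, 11658 bases, lies within a model of *Mtx1* on the opposite strand, and 597 bases of *Thbs1* lie within the noncoding gene *Gm29233* on the opposite strand. Whether the counting used the strand is not given in the sources used here, and any effect of these overlaps on the counts was not tested.

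The 250 bases before the start of *Thbs2*, *Thbs3*, and *Thbs4* are shown from RefSeq (GRCm38.p6). These were the only members with a stretch in the promoter collection used. They lie at chr17:14694263-14694512 on the minus strand, chr3:89214930-89215179 on the plus strand, and chr13:92794819-92795068 on the minus strand. Each is written 5′ to 3′ on the strand of its gene, and capitals mark matches on either strand to TATAAA (the TATA box), GGGCGG (the GC box bound by Sp1), CAGATG (an E-box of the kind scleraxis binds), and ACAAAG (a core bound by SOX proteins).
*Thbs2*: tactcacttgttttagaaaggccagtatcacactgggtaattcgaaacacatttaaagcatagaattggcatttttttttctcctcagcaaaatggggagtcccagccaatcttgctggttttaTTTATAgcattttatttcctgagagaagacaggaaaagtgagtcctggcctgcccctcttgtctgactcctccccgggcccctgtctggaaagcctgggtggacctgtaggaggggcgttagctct
*Thbs3*: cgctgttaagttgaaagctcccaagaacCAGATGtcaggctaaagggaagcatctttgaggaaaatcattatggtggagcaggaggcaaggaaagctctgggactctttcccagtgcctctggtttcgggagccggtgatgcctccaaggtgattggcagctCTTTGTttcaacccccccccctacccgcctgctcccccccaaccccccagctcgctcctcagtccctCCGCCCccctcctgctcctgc
*Thbs4*: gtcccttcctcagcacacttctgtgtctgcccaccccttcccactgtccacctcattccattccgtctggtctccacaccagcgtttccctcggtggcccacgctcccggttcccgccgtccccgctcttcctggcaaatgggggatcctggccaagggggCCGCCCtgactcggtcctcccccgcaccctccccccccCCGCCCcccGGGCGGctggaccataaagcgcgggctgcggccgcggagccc
These stretches held 46.8%, 58.8%, and 70.8% G and C. *Thbs2* had a single match, TATAAA on the minus strand 126 bases before the start. *Thbs3* had GGGCGG 21 bases, ACAAAG 88 bases, and CAGATG 222 bases before the start. *Thbs4* had 3 matches to GGGCGG, 42, 51, and 89 bases before the start, and none to the other 3 motifs, and no matches overlapped. Of 32851 promoter stretches of this length in the same collection, 12.4% held TATAAA, 32.7% GGGCGG, 14.4% CAGATG, and 16.5% ACAAAG. No motif was shared by all 3.

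*Comp* was the family member of cartilage. Its level, the CPM of the UMIs summed over a group, was highest in *Cnmd*-high cells on both days, with 10665 CPM (95% CI, 10635 to 10696) on day 10 and 10214 CPM (95% CI, 10176 to 10252) on day 14. *Col10a1*-high cells followed with 6820 CPM and 5449 CPM, and *Ifitm5*-high cells had 3315 CPM on day 10 and 1874 CPM on day 14. *Aspn*-high cells had 1888 CPM and 2011 CPM, and *Chodl*-positive cells 1711 CPM and 2054 CPM. *Rgs5*-high cells had the lowest level, 177 CPM and 646 CPM. On day 14 the *Aspn*-high and *Chodl*-positive levels had overlapping intervals. The intervals here are exact (Poisson for summed UMIs, binomial for ratios and shares) and cover counting error only, since no day had a second library.

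*Thbs2* was highest in the osteoprogenitors. It reached 1469 CPM (95% CI, 1453 to 1486) on day 10 and 1531 CPM (95% CI, 1519 to 1542) on day 14 in *Aspn*-high cells. *Chodl*-positive cells had 502 CPM and 853 CPM, *Rgs5*-high cells 338 CPM and 216 CPM, *Cnmd*-high cells 208 CPM and 166 CPM, and *Ifitm5*-high cells 138 CPM on both days. The lowest level was that of *Col10a1*-high cells, with 58.9 CPM and 60.02 CPM.

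*Thbs1* was present in both the osteoprogenitors and the cartilage cells. *Cnmd*-high cells had 710 CPM on day 10 and 650 CPM on day 14, and *Aspn*-high cells 597 CPM and 556 CPM. *Chodl*-positive cells stood above both with 1165 CPM (95% CI, 1060 to 1278) and 1348 CPM (95% CI, 1151 to 1569), although they were 42 and 13 cells. *Ifitm5*-high cells had 474 CPM and 302 CPM, *Rgs5*-high cells 410 CPM and 229 CPM, and *Col10a1*-high cells 135 CPM and 124 CPM.

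*Thbs3* had the narrowest range of the family. It stood at 244 CPM and 218 CPM in *Aspn*-high cells and at 198 CPM and 181 CPM in *Cnmd*-high cells. *Rgs5*-high cells had 82.4 CPM and 83.1 CPM, *Ifitm5*-high cells 69.0 CPM and 45.0 CPM, and *Col10a1*-high cells 42.4 CPM and 41.9 CPM. In *Chodl*-positive cells it had 92.6 CPM (95% CI, 64.9 to 128) and 162 CPM (95% CI, 99.2 to 251), intervals that reach those of several neighbors.

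*Thbs4* had the widest range. *Chodl*-positive cells had 6294 CPM (95% CI, 6047 to 6549) on day 10 and 3848 CPM (95% CI, 3510 to 4211) on day 14. *Aspn*-high cells came next with 225 CPM and 196 CPM. *Cnmd*-high cells had 24.6 CPM and 21.2 CPM, *Ifitm5*-high cells 19.5 CPM and 30.6 CPM, and *Col10a1*-high cells 2.31 CPM and 3.46 CPM. In *Rgs5*-high cells *Thbs4* had 2 UMIs on each day, which is under the 3 UMIs that a count of 0 allows.

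**Figure D1:**
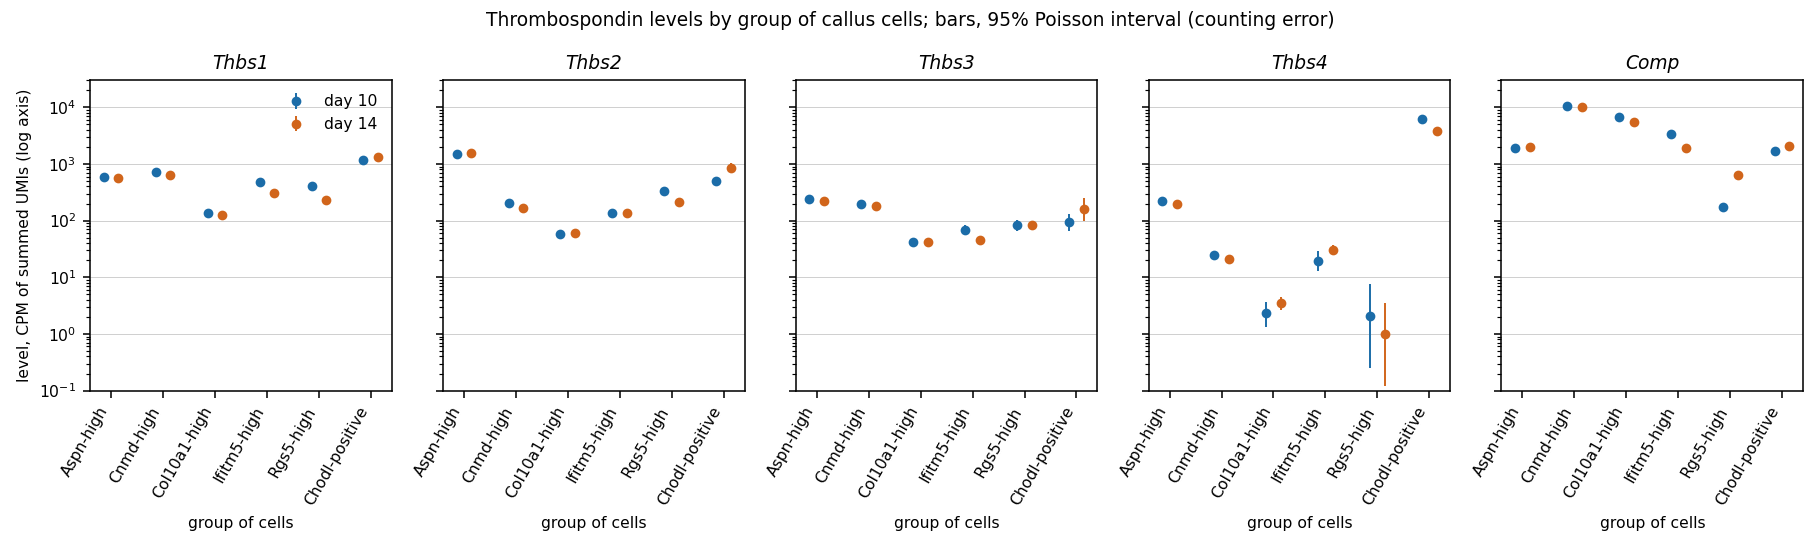
Level of each gene (CPM of UMIs summed over a group, log axis) in the 6 groups of callus cells on day 10 (blue) and day 14 (orange), with exact 95% Poisson intervals. *Comp* is highest in *Cnmd*-high cells at 10665 CPM and 10214 CPM, *Thbs2* in *Aspn*-high cells at 1469 CPM and 1531 CPM, and *Thbs4* in *Chodl*-positive cells at 6294 CPM and 3848 CPM.

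Within a group the family differed in which member prevailed. In *Aspn*-high cells *Comp* gave 42.7% of the UMIs of the 5 genes on day 10 and 44.6% on day 14, and *Thbs2* gave 33.2% and 33.9%. In *Cnmd*-high cells *Comp* gave 90.3% and 90.9%, and in *Col10a1*-high cells 96.6% and 96.0%. In *Chodl*-positive cells *Thbs4* gave 64.5% and 46.6%. *Rgs5*-high cells had the least of the family, 1009 CPM and 1175 CPM for the 5 genes together, against 11806 CPM and 11233 CPM in *Cnmd*-high cells.

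The groups also differed in how much of each gene they held. *Aspn*-high cells were 19.7% of the *Ptprc*-negative cells on day 10 and 31.7% on day 14, and they held 51.9% and 70.8% of the UMIs of *Thbs2* and 44.9% and 71.8% of those of *Thbs4*. *Cnmd*-high cells were 35.4% and 13.4% of the cells and held 58.3% and 32.9% of the *Comp* UMIs and 49.7% and 25.8% of the *Thbs1* UMIs. *Chodl*-positive cells were 0.638% and 0.134% of the cells and held 24.9% and 3.99% of the *Thbs4* UMIs. Cells high for no marker were 32.5% and 37.5% of the cells and held 26.4% and 41.0% of the *Comp* UMIs. In those cells *Comp* stood at 9703 CPM and 9029 CPM where *Col2a1* exceeded *Col1a1*. It stood at 3092 CPM and 4026 CPM where *Col1a1* exceeded *Col2a1*. *Thbs2* went the other way, with 138 CPM and 130 CPM in the former and 601 CPM and 568 CPM in the latter.

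**Figure D2:**
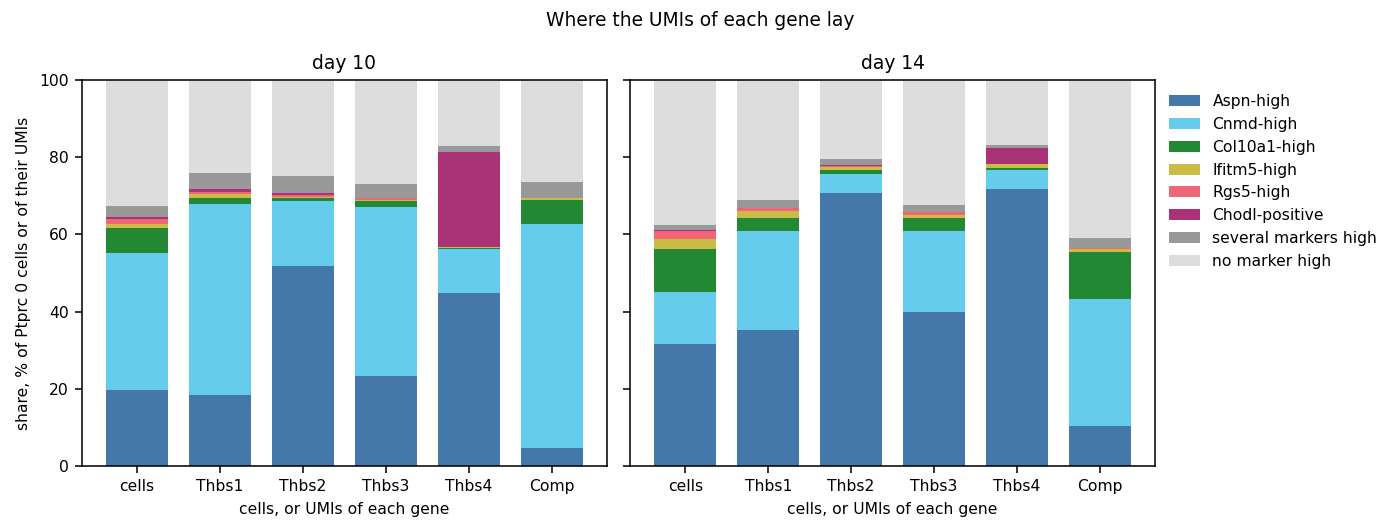
Share of the *Ptprc*-negative cells and of the UMIs of each gene (percent, stacked to 100) in each group on day 10 and day 14. *Chodl*-positive cells are 0.638% of the cells on day 10 and hold 24.9% of the *Thbs4* UMIs, and *Aspn*-high cells hold 70.8% of the *Thbs2* UMIs on day 14.

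Cartilage cells were compared with *Aspn*-high cells to ask how the family differs between the chondrogenic and the osteoprogenitor cells of the callus. In *Cnmd*-high over *Aspn*-high cells *Comp* was 5.65-fold higher on day 10 and 5.08-fold higher on day 14. *Thbs2* was 7.07-fold and 9.20-fold lower, and *Thbs4* 9.12-fold and 9.22-fold lower. *Thbs1* had log2 ratios of 0.25 (95% CI, 0.22 to 0.28) and 0.22 (95% CI, 0.20 to 0.25), and *Thbs3* of −0.30 (95% CI, −0.35 to −0.25) and −0.26 (95% CI, −0.31 to −0.21). So 3 of the 5 members differed at least 2-fold in the same direction on both days, the criterion used throughout, and 17.6% of 5553 genes tested did so. The median log2 ratio of the members was −0.30 and −0.26, beside −0.29 on both days for all genes tested. No test was made, with 1 library a day.

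Hypertrophic cells were compared with the other cartilage cells for the change of the family along the cartilage path. In *Col10a1*-high over *Cnmd*-high cells, *Thbs1* was 5.27-fold and 5.25-fold lower on day 10 and day 14, *Thbs2* 3.53-fold and 2.77-fold lower, and *Thbs3* 4.67-fold and 4.33-fold lower. *Thbs4* was 10.7-fold and 6.14-fold lower, from 24.6 CPM and 21.2 CPM, close to the 20 CPM set for testing, and its log2 ratio on day 14 moved from −2.62 to −0.60 without the upper limit of genes per cell, which ended the call. *Comp* had log2 ratios of −0.64 (95% CI, −0.66 to −0.63) and −0.91 (95% CI, −0.92 to −0.90) and so stayed within 2-fold. The criterion was met by 4 of 5 members, all lower, and by 16.9% of 5151 genes tested, whose median log2 ratio was 0.10 and 0.01.

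Osteoblasts and pericytes were each compared with the osteoprogenitors. In *Ifitm5*-high over *Aspn*-high cells *Thbs2* was 10.7-fold and 11.1-fold lower on day 10 and day 14, *Thbs3* 3.53-fold and 4.84-fold lower, and *Thbs4* 11.5-fold and 6.41-fold lower. With cells thinned to 2000 UMIs the log2 ratio of *Thbs4* moved from −3.53 to −5.22 on day 10 and from −2.68 to −3.48 on day 14. *Thbs1* had log2 ratios of −0.33 and −0.88. *Comp* had a log2 ratio of 0.81 (95% CI, 0.77 to 0.86) on day 10 and −0.10 (95% CI, −0.14 to −0.07) on day 14, so the days differed in sign. Here 3 of 5 members met the criterion, all lower, and 18.7% of 5609 genes tested did, with a median log2 ratio of −0.32 and −0.31.

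In *Rgs5*-high over *Aspn*-high cells *Thbs2* was 4.35-fold and 7.07-fold lower, *Thbs3* 2.96-fold and 2.62-fold lower, and *Comp* 10.7-fold and 3.11-fold lower. Without the upper limit of genes per cell the log2 ratio of *Comp* on day 10 moved from −3.41 to −1.39. The log2 ratio of *Thbs4* was −6.75 (95% CI, −9.80 to −4.90) and −7.64 (95% CI, −10.68 to −5.79), which rests on 2 UMIs in the pericytes on each day. *Thbs1* had log2 ratios of −0.54 and −1.28 and passed 2-fold on day 14 alone. The criterion was met by 4 of 5 members, all lower, and by 16.6% of 6014 genes tested, whose median log2 ratio was 0.04 and 0.09.

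**Figure D3:**
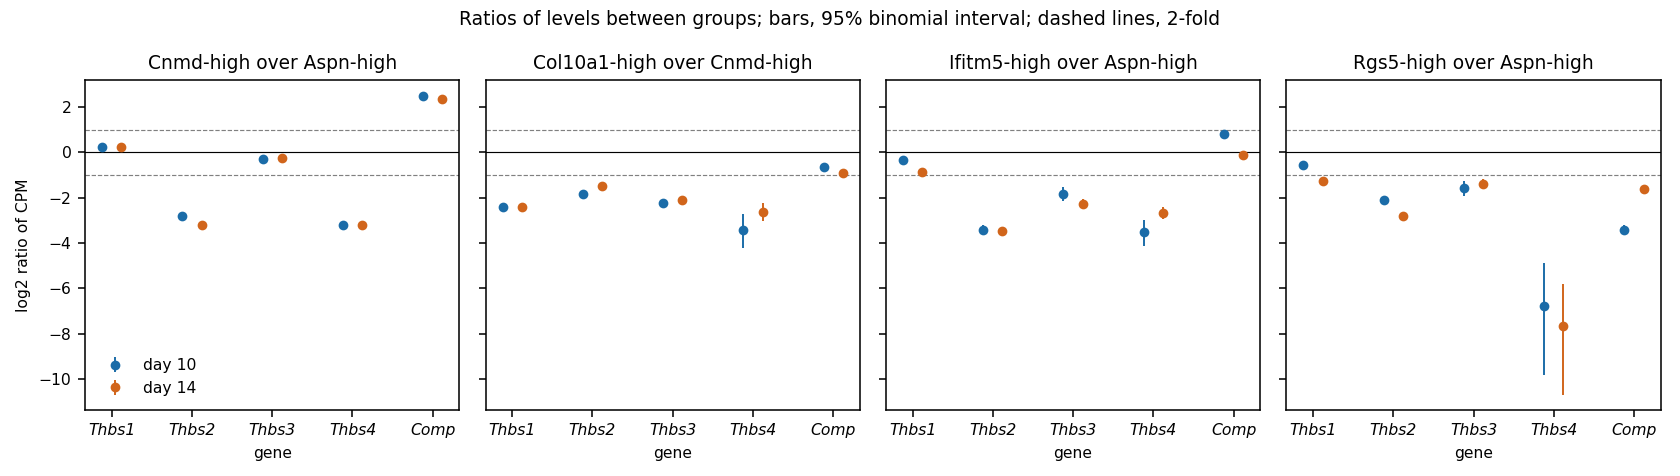
Log2 ratio of CPM between groups for each gene on day 10 (blue) and day 14 (orange), with exact 95% binomial intervals and dashed lines at 2-fold. *Comp* is 5.65-fold and 5.08-fold higher in *Cnmd*-high cells, and *Thbs2* and *Thbs4* lie below the lower dashed line in all 4 comparisons.

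The spread from cell to cell added to these means. To keep depth from setting the share of cells with a UMI, 2000 UMIs were drawn at random from each cell, and shallower cells were left out (4 and 15 *Aspn*-high cells and 19 and 7 *Cnmd*-high cells on day 10 and day 14). *Thbs2* was seen in 85.4% (95% CI, 83.4% to 87.3%) and 86.7% (95% CI, 85.5% to 87.9%) of *Aspn*-high cells, and in 11.0% and 10.2% of *Col10a1*-high cells. *Thbs4* was seen in 22.3% and 20.2% of *Aspn*-high cells, against 1.39% and 0.526% of *Rgs5*-high cells and 0.714% and 0.471% of *Col10a1*-high cells. Before thinning, 42.1% and 42.3% of *Aspn*-high cells and 2.70% and 1.04% of *Rgs5*-high cells had a *Thbs4* UMI, at median depths of 15176.5 and 14357 against 12474.5 and 9076 UMIs. *Thbs4* was thus uneven among *Aspn*-high cells, with a median cell at 0 CPM and a highest cell at 5407 CPM and 6024 CPM. The top 10% of these cells held 63.3% and 64.4% of its UMIs. *Comp* was seen in 100% and 99.5% of *Cnmd*-high cells, with a median cell at 9837 CPM and 9321 CPM, and in 33.3% and 41.6% of *Rgs5*-high cells. *Thbs1* was seen in 47.6% and 45.5% of *Aspn*-high cells and in 62.2% and 55.9% of *Cnmd*-high cells. Before thinning, 90.5% and 76.7% of *Rgs5*-high cells had a *Comp* UMI, and 100% and 94.8% had a UMI of the cartilage collagen gene *Col2a1*. Whether these UMIs came from the *Rgs5*-high cells or from free RNA was not tested.

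*Chodl* encodes chondrolectin, and these few cells stood apart by *Thbs4*. All 42 *Chodl*-positive cells of day 10 and all 13 of day 14 had a *Thbs4* UMI. Among them the lowest, median, and highest cell had 149 CPM, 6515 CPM, and 23973 CPM on day 10 and 132 CPM, 3235 CPM, and 9267 CPM on day 14. Without the cell with the most *Thbs4* UMIs the level was 5967 CPM and 3339 CPM. After thinning, 38 of 40 (95% CI, 83.1% to 99.4%) and 12 of 13 (95% CI, 64.0% to 99.8%) of these cells had a *Thbs4* UMI, although they were shallow, with a median depth of 7422 and 8656 UMIs. *Thbs4* was higher with more *Chodl* UMIs in the cell, going from 62.8 CPM with 0 UMIs to 869 CPM with 1 and 6294 CPM with 2 or more on day 10, and from 74.4 CPM to 509 CPM and 3848 CPM on day 14. The cells with 1 *Chodl* UMI were 28 and 11, so the middle value of day 14 is a thin one. *Comp* stood at 7288 CPM, 3135 CPM, and 1711 CPM with 0, 1, and 2 or more *Chodl* UMIs on day 10. On day 14 it stood at 5568 CPM, 849 CPM, and 2054 CPM, so the order of the last pair differed between the days.

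**Figure D4:**
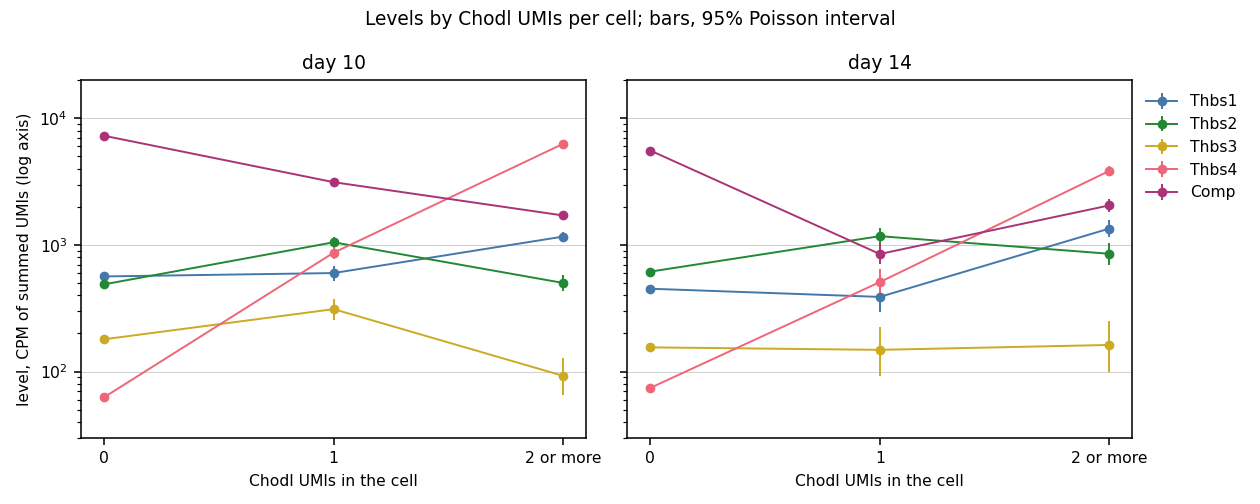
Level of each gene (CPM, log axis) in *Ptprc*-negative cells with 0, 1, and 2 or more *Chodl* UMIs on day 10 and day 14, with exact 95% Poisson intervals. *Thbs4* climbs from 62.8 CPM to 6294 CPM on day 10 and from 74.4 CPM to 3848 CPM on day 14.

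The *Chodl*-positive cells also carried tendon genes. *Tnmd*, the gene of the tendon membrane protein tenomodulin, had 2428 CPM and 3962 CPM in them beside 347 CPM and 401 CPM in *Aspn*-high cells. *Scx*, the gene of the tendon transcription factor scleraxis, had 913 CPM and 796 CPM beside 205 CPM and 194 CPM, and *Fmod*, the gene of the collagen-binding fibromodulin, 2858 CPM and 2517 CPM beside 1229 CPM and 1144 CPM. *Angptl7* was seen in 5 of 42 and 5 of 13 of these cells. Of the 42 and 13 cells, 19 and 11 were also high for *Aspn*. With fewer than 50 cells on each day, no ratio was formed for this group.

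The cartilage cells were then ordered by their *Col10a1* level, bins chosen after values had been seen. Within *Cnmd*-high cells *Comp* was lowest in those with least *Col10a1*. On day 10 it stood at 10223 CPM (95% CI, 10191 to 10255) with 0 to 200 CPM of *Col10a1*, at 13803 CPM with 200 to 1000 CPM, at 13531 CPM with 1000 to 3000 CPM, and at 12997 CPM with 3000 to 10000 CPM. Cells high for both *Cnmd* and *Col10a1*, 42 in number, had 14727 CPM (95% CI, 14475 to 14982), and *Col10a1*-high cells without high *Cnmd* had 6820 CPM. Day 14 gave 9666 CPM, 11175 CPM, 14061 CPM, 13220 CPM, 15867 CPM (27 cells), and 5449 CPM in the same order. So *Comp* was higher in the cells past both thresholds than in those past only the *Cnmd* or only the *Col10a1* threshold. This rests on 42 and 27 cells, and doublets were not called.

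*Thbs2* declined with *Col10a1* already within the *Cnmd*-high cells, and the largest step of *Thbs1* lay after them. *Thbs2* stood at 225 CPM, 133 CPM, 79.1 CPM, and 53.0 CPM in the 4 bins of *Cnmd*-high cells on day 10 and at 40.7 CPM in the cells high for both. *Thbs1* stood at 722 CPM, 536 CPM, 659 CPM, and 789 CPM in these bins and at 722 CPM in the cells high for both, then at 135 CPM in *Col10a1*-high cells. On day 14 *Thbs2* stood at 182 CPM, 147 CPM, 64.3 CPM, and 40.6 CPM and then at 52.5 CPM, and *Thbs1* at 666 CPM, 628 CPM, 566 CPM, and 517 CPM and then at 573 CPM, before 124 CPM in *Col10a1*-high cells. *Thbs3* kept 161 CPM and 145 CPM in the cells high for both against 42.4 CPM and 41.9 CPM in *Col10a1*-high cells.

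**Figure D5:**
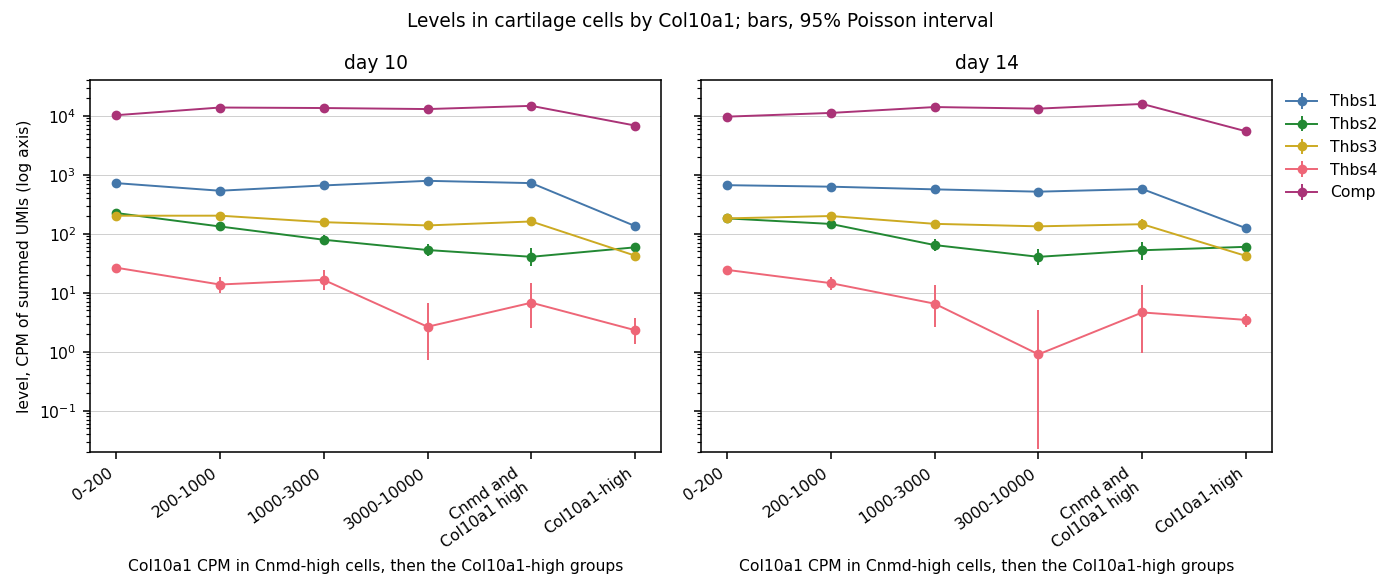
Level of each gene (CPM, log axis) in *Cnmd*-high cells by their *Col10a1* CPM, in cells high for both markers, and in *Col10a1*-high cells, on day 10 and day 14, with exact 95% Poisson intervals. *Comp* peaks in the cells high for both at 14727 CPM and 15867 CPM, while *Thbs1* drops between these cells and *Col10a1*-high cells, from 722 CPM to 135 CPM on day 10.

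The *Aspn*-high cells were split into 3 equal parts by each of several genes, also chosen after values had been seen. By *Postn*, the gene of periostin and the study's marker of osteoprogenitors, *Comp* went from 3302 CPM in the lowest part to 1816 CPM and 734 CPM on day 10 and from 2829 CPM to 2100 CPM and 1204 CPM on day 14. *Thbs2* was higher with more *Postn*, going from 1176 CPM to 1433 CPM and 1759 CPM on day 10 and from 1203 CPM to 1486 CPM and 1863 CPM on day 14. *Thbs4* had no common order, with 233 CPM, 254 CPM, and 189 CPM on day 10 but 122 CPM, 191 CPM, and 266 CPM on day 14.

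By *Acta2*, the gene of smooth muscle actin, *Thbs1* went from 442 CPM to 505 CPM and 802 CPM on day 10 and from 457 CPM to 497 CPM and 695 CPM on day 14, while *Comp* went from 3392 CPM to 666 CPM and from 2766 CPM to 1189 CPM between the lowest and the highest part. By *Scx*, *Thbs4* stood at 175 CPM, 155 CPM, and 335 CPM on day 10 and at 124 CPM, 161 CPM, and 295 CPM on day 14, highest where *Scx* was highest. By *Cnmd*, the highest part had 3631 CPM of *Comp* on day 10 and 3135 CPM on day 14, against 1083 CPM and 1480 CPM in the lowest. *Thbs3* varied little in these splits, by at most from 185 CPM to 254 CPM, along *Postn* on day 14.

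Genes seen together with each member in *Aspn*-high cells, at 2000 UMIs per cell, were ranked by the smaller of their folds on day 10 and day 14. The 5 first for *Thbs1* were *Tagln*, *Actg2*, *Rflnb*, *Ccn2*, and *Ddah1*, with *Tagln*, the gene of the contractile protein transgelin, 1.93-fold and 1.79-fold higher in the cells with a *Thbs1* UMI. *Thbs2* also went with *Tagln* first, then *Lrrc15*, *Dkk3*, *Scx*, and *Megf6*, with *Scx* 2.19-fold and 1.71-fold higher. *Thbs3* went with *Pamr1*, *Sbsn*, *Anxa8*, *Inhba*, and *Wwp2*, at folds of 1.34 to 1.84. *Thbs4* went with *Tnmd*, *Chad*, *Angptl1*, *Gas1*, and *Mfap4*, with *Tnmd* 4.31-fold and 3.03-fold and *Chad*, the gene of the cartilage protein chondroadherin, 10.9-fold and 2.78-fold higher. *Comp* went with *Cnmd*, *Col11a2*, *Slc40a1*, *Rbp4*, and *Penk*, with *Cnmd* 7.49-fold and 4.89-fold and *Col11a2*, a cartilage collagen, 3.17-fold and 4.08-fold higher. These folds describe cells of 1 library a day and have no test.

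Members were also compared in pairs in these thinned cells. How closely they are tied cannot be read from the shares, since thinning hides a member in many cells. On day 10, 42.1% of *Aspn*-high cells had a *Thbs4* UMI before thinning and 22.3% after it. *Thbs1* was seen in 47.1% of the cells with *Thbs2* and 35.3% of those without on day 14. *Thbs4* was seen in 21.5% of the cells with *Thbs2* and 26.5% of those without on day 10. *Comp* was seen in 77.8% of the 288 cells with *Thbs4* and 64.6% of those without it on day 10, and in 76.9% of 616 and 73.0% on day 14. *Thbs2* was seen in 87.8% of the cells with *Thbs1* and 83.2% of those without on day 10, and in 89.7% and 84.3% on day 14.

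Over 12 points, the 5 marker groups and the cells high for no marker on day 10 and day 14, each member's log2 level was compared with those of 4077 genes. The points share libraries, and the correlations are descriptions only. The closest gene to *Comp* was *Inpp1* (*r* = 0.99), with *Sox6*, a transcription factor of chondrocytes, and *Col11a1* at 0.97. The closest to *Thbs2* was *Fbn2*, the gene of the microfibril protein fibrillin 2 (*r* = 0.98), followed by *Acvr1* and *Antxr1*. *Thbs3* was closest to *Col16a1* (*r* = 0.98) and *Loxl2*, an enzyme that cross-links collagen (*r* = 0.97), and *Thbs4* to *Ssc5d* (*r* = 0.98) and *Frmd6*. *Thbs1* was closest to *Crtap* (*r* = 0.98), which takes part in collagen hydroxylation, and to *Ccdc127*. Between members *r* was 0.84 for *Thbs1* and *Thbs3*, 0.83 for *Thbs2* and *Thbs4*, and −0.30 for *Thbs2* and *Comp*.

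The partners of the family were followed as lists chosen with earlier results of these data known. Of 9 matrix partners, all tested in *Cnmd*-high over *Aspn*-high cells, 7 were at least 2-fold higher on both days, beside 276 of the 5553 genes tested (*Col2a1*, *Col9a1*, *Col9a2*, *Col9a3*, *Matn1*, *Matn3*, and *Acan*) and *Col1a1* was lower. *Matn3*, the gene of matrilin 3, had log2 ratios of 4.05 and 4.45, and *Col9a1*, a chain of collagen IX, of 4.64 and 5.14, larger than those of *Comp*, 2.50 and 2.34. In *Col10a1*-high over *Cnmd*-high cells 5 of the 9 were lower, beside 462 of 5151 genes, *Matn3* by a log2 ratio of −2.47 and −2.98 and *Col9a1* by −1.95 and −2.33, while *Acan* had −0.21 and −0.32.

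Of 13 receptors, 9 were tested in *Cnmd*-high over *Aspn*-high cells, where *Cd47*, *Itgb1*, *Itgb5*, and *Sdc1* were lower, beside 701 of 5553 genes, and *Sdc4*, the gene of syndecan 4, was higher, with log2 ratios of 1.24 and 1.20. *Cd36*, the receptor of the type 1 repeats, had at most 2 UMIs in any of the 6 groups on either day. In *Col10a1*-high over *Cnmd*-high cells *Itgb3* and *Itgb5*, the β chains of αv integrins, were higher among 11 tested, beside 410 of 5151 genes. *Itgb3* had 55.6 CPM against 1.49 CPM on day 10 and 43.9 CPM against 1.94 CPM on day 14. In *Rgs5*-high over *Aspn*-high cells 3 of 10 tested were higher, beside 542 of 6014 genes. They were *Itgav*, *Itgb3*, and *Cacna2d1*, the gene of the calcium channel subunit that binds thrombospondins. *Sdc4* was lower there, beside 454 of 6014 genes. In *Ifitm5*-high over *Aspn*-high cells *Itgb5*, *Lrp1*, and *Sdc1* were lower among 9 tested, beside 790 of 5609 genes.

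Of 9 genes of TGF-β and of the proteases that cut COMP or activate latent factors, 8 were tested in *Cnmd*-high over *Aspn*-high cells. Of these, 6 were lower (*Tgfb3*, *Ltbp1*, *Adamts12*, *Adamts4*, *Mmp13*, and *Mmp14*), beside 701 of the 5553 genes tested. *Adamts12*, whose product cleaves COMP, had 14.6 CPM against 36.0 CPM on day 10 and 13.3 CPM against 44.0 CPM on day 14. In *Col10a1*-high over *Cnmd*-high cells *Tgfb1*, *Tgfb3*, and *Mmp13* were higher among 6 tested, beside 410 of 5151 genes. *Tgfb1* had log2 ratios of 1.58 and 1.48. In *Ifitm5*-high over *Aspn*-high cells *Tgfb1* was higher, beside 261 of 5609 genes tested, and 5 of 8 were lower, beside 790 of them. In *Rgs5*-high over *Aspn*-high cells, with 8 tested, *Adamts12* was higher, at 115 CPM and 117 CPM, beside 542 of 6014 genes. *Ltbp1* and *Mmp13* were lower there, beside 454 of 6014 genes. Of 10 proteins with type 1 repeats outside the family, 5 were tested in *Cnmd*-high over *Aspn*-high cells. *Spon1*, *Spon2*, and *Adamtsl1* were lower, beside 701 of 5553 genes. Of the same 10, 3 were tested in *Col10a1*-high over *Cnmd*-high cells. There *Spon2* was higher and *Rspo3* lower, beside 410 higher and 462 lower of 5151 genes. In *Ifitm5*-high over *Aspn*-high cells 4 of 5 tested were lower, beside 790 of 5609 genes. In *Rgs5*-high over *Aspn*-high cells 3 of 5 were lower, beside 454 of 6014 genes. Of 4 tendon genes, *Scx* and *Tnmd* were lower among 3 tested in *Cnmd*-high over *Aspn*-high cells, beside 701 of 5553 genes. *Tnmd* and *Fmod*, the 2 tested, were lower in *Col10a1*-high over *Cnmd*-high cells, beside 462 of 5151 genes. All 3 tested were lower in *Ifitm5*-high over *Aspn*-high cells, beside 790 of 5609 genes. The same 3 were lower in *Rgs5*-high over *Aspn*-high cells, beside 454 of 6014 genes.

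Between day 10 and day 14 no member reached 2-fold in the 3 larger groups. In *Aspn*-high cells the 5 log2 ratios of day 14 over day 10 ran from −0.20 (*Thbs4*) to 0.09 (*Comp*), none reached 2-fold, and 1.01% of 5728 genes tested did. In *Cnmd*-high cells they ran from −0.32 (*Thbs2*) to −0.06 (*Comp*), beside 1.22% of 4916 genes at 2-fold. In *Col10a1*-high cells *Comp* had −0.32 (95% CI, −0.34 to −0.31), beside 1.01% of 5153 genes, and the median log2 ratio of all genes there was −0.12. In *Ifitm5*-high cells *Comp* had −0.82 (95% CI, −0.88 to −0.77), *Thbs1* −0.65, *Thbs3* −0.62, and *Thbs4* 0.65 (95% CI, 0.03 to 1.32), none of them at 2-fold, beside 2.2% of 4964 genes. The 5 chondrocyte genes moved with *Comp* in these osteoblasts, from 5509 CPM to 2599 CPM, and their part in the difference was not tested.

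In *Rgs5*-high cells *Comp* was 3.65-fold higher on day 14 (log2 ratio, 1.87; 95% CI, 1.63 to 2.11), the only one of the 4 members tested that passed 2-fold, beside 4.34% of 6108 genes. The difference lay in few cells. The median *Rgs5*-high cell had 157 CPM of *Comp* on day 10 and 174 CPM on day 14, but the top 10% of cells held 25.3% of the *Comp* UMIs on day 10 and 79.0% on day 14. Without the 8 and 20 cells with most *Comp*, an alternative added after values were seen, the levels were 154 CPM (95% CI, 128 to 183) and 162 CPM (95% CI, 144 to 183). The 20 cells left out on day 14 carried 7587 CPM of the 5 chondrocyte genes, and the 173 cells kept carried 441 CPM. Over the whole group these genes stood at 520 CPM and 1611 CPM and the 6 osteoblast genes at 147 CPM and 1557 CPM on the 2 days. Most of the osteoblast sum was *Ibsp*, with 124 CPM and 1376 CPM. *Thbs1* and *Thbs2* went the other way in this group, with log2 ratios of −0.84 and −0.64.

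On day 7 the groups were small. The 6 neutrophil genes summed to 1787 CPM in *Aspn*-high, 1972 CPM in *Cnmd*-high, 1706 CPM in *Col10a1*-high, and 1552 CPM in *Chodl*-positive cells. In the 379 cells high for no marker they summed to 31609 CPM. The 47 *Cnmd*-high cells had 7658 CPM (95% CI, 7484 to 7834) of *Comp*, 687 CPM of *Thbs1*, 253 CPM of *Thbs3*, 198 CPM of *Thbs2*, and 67.3 CPM of *Thbs4*. The 11 *Aspn*-high cells had 1185 CPM (95% CI, 1037 to 1348) of *Thbs2*, 546 CPM of *Comp*, 271 CPM of *Thbs1*, and 158 CPM of *Thbs3*. Their 317 CPM of *Thbs4* came from 2 cells. The 3 *Chodl*-positive cells had 4923 CPM (95% CI, 4269 to 5649) of *Thbs4* and 60.6% of all *Thbs4* UMIs of the *Ptprc*-negative cells of that day. The 5 *Col10a1*-high cells had 3856 CPM of *Comp* and 0 UMIs of *Thbs4*, which allows up to 25.6 CPM. Among these 4 groups the order for *Thbs2* and for *Thbs4* was that of the later days. For *Comp* the *Cnmd*-high and *Col10a1*-high cells again led. *Chodl*-positive cells had 1116 CPM, above *Aspn*-high cells, but their 3 cells ran from 71.3 CPM to 2334 CPM. On day 10 *Aspn*-high cells had more *Comp* than *Chodl*-positive cells, and on day 14 the intervals of the 2 groups overlapped.

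Cells just above and just below the limits differed by marker. Cells within 25% above the *Aspn* limit had 1111 CPM and 1019 CPM of *Thbs2* on day 10 and day 14, and those within 25% below it 1070 CPM and 960 CPM. For *Cnmd*, *Comp* stood at 10269.9 CPM and 10045 CPM just above and at 10058 CPM and 11754.5 CPM just below. For *Col10a1*, *Thbs1* stood at 243 CPM and 220 CPM just above and at 352 CPM and 252 CPM just below, and *Comp* at 5596 CPM and 6281 CPM just above and at 8885 CPM and 5777 CPM just below. At *Ifitm5*, with 14 and 42 cells just above and 16 and 44 just below, *Thbs1* stood at 747 CPM and 406 CPM just above and at 301 CPM and 197 CPM just below, and *Thbs2* at 112 CPM and 238 CPM just above and at 114 CPM and 107 CPM just below. *Thbs4* stood at 7.70 CPM and 11.6 CPM above this limit and at 61.0 CPM and 44.9 CPM below it. At *Rgs5* at most 3 cells lay on either side.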

How the data were processed

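The 3 libraries were C57BL/6 fracture callus on day 7, day 10, and day 14, 1 each, and the labels give the group of each. The authors aligned the reads to mm10 with Cell Ranger (3.0 per the submitters' processing notes, 3.1.0 in the file header) and deposited raw UMI counts for every gene and barcode with no scaling. The paper names a later Cell Ranger version, and a kit version other than the 3′ v2 kit of the labels, so the versions and the chemistry are uncertain.

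The members and lists were chosen with earlier results of these data known. Python 3.11.15, numpy 2.4.6, scipy 1.17.1, pandas 2.3.3, and matplotlib 3.10.9 were used. Doublets were not called, and the upper limit of 5000 genes stood in for a caller. Levels are CPM of summed UMIs with exact Poisson 95% intervals, and ratios have exact binomial intervals. Genes with at least 20 CPM in 1 of 2 groups on both days were tested for a 2-fold difference in the same direction on both days, in groups of at least 50 cells. A count of 0 allows up to 3 counts. Likeness used log2(CPM + 10) among genes with at least 50 CPM in a point, and genes seen together needed at least 100 CPM. The genes named are the 5 members, the fixed lists, and the 5 leading genes of each of these measures. The alternatives were other limits on cells, other thresholds, and other ways of summing. The ratio procedure was tested on simulated data.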

Additional observations from a re-analysis of the deposited data

Results flagged for a closer look

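The change of *Comp* from day 10 to day 14 in *Rgs5*-high cells went opposite to that of 3 other groups. It exceeded that of *Cnmd*-high cells by 1.93 on the log2 scale, that of *Col10a1*-high cells by 2.19, and that of *Ifitm5*-high cells by 2.69. With 1 library a day these differences were not tested. The top 10% of *Rgs5*-high cells held 79.0% of the *Comp* UMIs on day 14, and the median cell had 174 CPM.

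Cells with a *Ptprc* UMI, left out of the groups above, also had UMIs of the family. On day 7 these were 6570 cells, in which the 6 neutrophil genes summed to 305414 CPM. They had 51.8 CPM of *Thbs1*, 7.13 CPM of *Thbs2*, 3.84 CPM of *Thbs3*, 2.29 CPM of *Thbs4*, and 85.6 CPM of *Comp*. The 5 chondrocyte genes summed to 567 CPM and the 6 osteoblast genes to 612 CPM in them. On day 14 they were 173 cells, with 192 CPM of *Thbs1*, 233 CPM of *Thbs2*, 43.6 CPM of *Thbs3*, 12.8 CPM of *Thbs4*, and 2027 CPM of *Comp*. On day 14 the 6 neutrophil genes summed to 185867 CPM, the 5 chondrocyte genes to 6975 CPM, and the 6 osteoblast genes to 5616 CPM in the same cells. Whether these UMIs came from the cells or from free RNA was not tested.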

How the results depend on the processing

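Over 10 alternatives, the numbers of members past 2-fold stayed within 1.5 times of the values above in each of the 4 comparisons between groups wherever they could be computed. With all thresholds halved or doubled 1 of the 4 could not be, since a group fell under 50 cells. *Chodl*-positive cells stayed under 50 on day 14 in all alternatives, so no such count was formed for them. The number of members past 2-fold between the days, 1 above (*Comp* in *Rgs5*-high cells), was 0 with thresholds halved, where *Rgs5*-high cells gave no value, with thresholds doubled, with cells high for several markers kept, without an upper limit of genes, and with the mean over cells of CPM. It was 2 with cells thinned to 2000 UMIs, where *Comp* in *Ifitm5*-high cells was added. The log2 ratio of *Comp* between the days in *Rgs5*-high cells, 1.87 above, was 0.23 with thresholds doubled, 0.51 without an upper limit of genes, 0.65 with cells high for several markers kept, and 0.91 with the mean over cells. The cause was not tested. The log2 ratio of *Comp* in *Rgs5*-high over *Aspn*-high cells on day 10, −3.41 above, was −1.39 without the upper gene limit and −1.51 with thresholds doubled. With cells thinned to 2000 UMIs the log2 ratio of *Thbs4* in *Ifitm5*-high over *Aspn*-high cells on day 10 moved from −3.53 to −5.22. Without the upper limit of genes that of *Thbs4* in *Col10a1*-high over *Cnmd*-high cells on day 14 moved from −2.62 to −0.60. Of 63 single ratios, none past 2-fold changed sign. With the 20 most abundant genes left out of the totals, the median of all genes in *Ifitm5*-high over *Aspn*-high cells moved from −0.32 to −0.09 on day 10 and from −0.31 to −0.12 on day 14, and the members past 2-fold there stayed 3.

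No paired analysis was possible because the labels give no replicate numbers and each day had 1 library, and no replicate was there to leave out. Depth limited *Thbs4* most, with 2 UMIs in *Rgs5*-high cells on each day. Doublets were not called, and the groups rest on thresholds of single genes.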

Other observations

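Of the cells with a *Ptprc* UMI on day 7, the 169 with at least 5 UMIs of the 5 macrophage genes had 40.2 CPM (95% CI, 32.3 to 49.5) of *Thbs1* and 15.1 CPM (95% CI, 10.4 to 21.2) of *Comp*, and 0 UMIs of *Thbs2*, *Thbs3*, and *Thbs4*. The other 6401 had 52.3 CPM of *Thbs1* and 88.8 CPM of *Comp*. So in the macrophage-marked cells *Thbs1* exceeded *Comp*, and in the rest *Comp* exceeded *Thbs1*. The 39 cells with at least 2 UMIs of the platelet genes had 15.0 CPM (95% CI, 6.02 to 30.9) of *Thbs1*, from 7 UMIs. The 6531 cells with fewer had more, 52.1 CPM (95% CI, 50.1 to 54.2). Platelets store thrombospondin 1 as protein, which these counts do not measure.

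Cells high for both *Aspn* and *Cnmd*, 143 on day 10 and 73 on day 14, held the osteoprogenitor and the cartilage members together. They had 8624 CPM and 7489 CPM of *Comp* and 1093 CPM and 838 CPM of *Thbs2*. *Thbs4* stood at 56.6 CPM and 57.4 CPM, below the 225 CPM and 196 CPM of *Aspn*-high cells. Whether these barcodes hold 1 cell or 2 was not tested.

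In *Rgs5*-high cells 6 of 8 matrix partners tested were at least 2-fold higher on day 14 than on day 10, with a median log2 ratio of 1.27, beside 4.34% of all genes past 2-fold, and in *Ifitm5*-high cells 4 of 8 were lower, with a median of −0.95, beside 2.2% of all genes. The 5 chondrocyte genes moved with them, from 520 CPM to 1611 CPM in *Rgs5*-high cells and from 5509 CPM to 2599 CPM in *Ifitm5*-high cells. On day 14 the 20 *Rgs5*-high cells with most *Comp* held 7587 CPM of these genes and the other 173 held 441 CPM. Their part in the counts was not tested.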
